A study of Homo sapiens with 22 samples.

Results

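Of the cohesin sites that overlap CTCF in untreated cells, 18801 carried a RAD21 peak in every one of 6 RAD21 libraries of NIPBL degron cells, whether or not NIPBL had been targeted for degradation. These persisting sites were chosen by the deposited peak calls themselves. A peak of the clone D7 DMSO RAD21 list was a member when it overlapped, by at least 1 bp, a CTCF peak and a peak of each of the 5 other RAD21 lists. The clone D7 DMSO list held 37566 RAD21 peaks, of which 31210 overlapped CTCF, so members made up 60.2% of the RAD21-CTCF sites (95% Wilson interval 59.7 to 60.8) and 50.0% of all peaks in that list. The other 12409 RAD21-CTCF sites missed at least 1 list. Among those, 1153 sites, called lost here, were in the clone A2 DMSO list but absent from all 4 dTAGV-1 lists. Since the RAD21 and CTCF calls defined the members, RAD21 and CTCF values at these sites are given as a description, with no test. The rule did not use the STAG1, STAG2, PDS5A, WAPL and HA lists, nor gene position or sequence. The motif searched below is that of CTCF, so sequence is not independent of the CTCF calls in the rule.

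The cells were hTERT RPE-1, human retinal pigment epithelium immortalised with telomerase. Both degron clones carry FKBP12(F36V) on NIPBL, a domain through which the small molecule dTAGV-1 directs a protein to degradation. Clone A2 is labelled mCherry-P2A-FKBP12(F36V)-NIPBL and clone D7 mGreenLantern-P2A-FKBP12(F36V)-NIPBL. RAD21 was precipitated in each clone after DMSO for 24 h, dTAGV-1 for 4 h and dTAGV-1 for 24 h, from asynchronous cells with about 10% of mouse NIH/3T3 chromatin added. CTCF and WAPL came from wild-type cells. STAG1 and STAG2 came from clone D7 with no treatment named and shared 1 input, while PDS5A came from clone D7 in DMSO and its input was shared with RAD21. HA was precipitated in clone A2 from chromatin fixed with DSG and then formaldehyde, and the peak names in that list carry NIPBL, but the genotype label of clone A2 names no HA epitope, so these peaks are given as HA. Each clone is a single line and held 1 library per condition, so a treatment difference can be set side by side in 2 different lines but has no replicate within either. How far NIPBL fell in these cells was not measured by the lists.

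Cohesin is a ring of SMC1A, SMC3 and the kleisin RAD21, to which either STAG1 or STAG2 binds. NIPBL stimulates the ATPase of the ring and drives the extrusion of chromatin loops. CTCF, a zinc-finger protein bound to an asymmetric motif, stops cohesin in an orientation-dependent way through its amino terminus. PDS5A competes with NIPBL for the ring, and with WAPL it promotes release of cohesin from DNA.

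The CTCF motif is the sequence at which these sites are anchored, so it is shown first. The core searched was CCA, any 2 bases, AG, any 2 bases and GGC, read 5′ to 3′ without a gap, on both strands of RefSeq promoters of GRCh38.p14, which run from 250 bases before to 50 after a gene start. Of the builds in the submitters' processing notes, the human one is hg38, the common name of GRCh38. The promoters of the 3 members of highest RAD21 fold in clone D7 DMSO that hold it are printed from the upstream part of the window, with the motif in capitals. They read along the gene, and in LINC00398 and WDR38 the motif therefore appears as its reverse complement.

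LINC00398, chr13:30802956-30803205, plus strand: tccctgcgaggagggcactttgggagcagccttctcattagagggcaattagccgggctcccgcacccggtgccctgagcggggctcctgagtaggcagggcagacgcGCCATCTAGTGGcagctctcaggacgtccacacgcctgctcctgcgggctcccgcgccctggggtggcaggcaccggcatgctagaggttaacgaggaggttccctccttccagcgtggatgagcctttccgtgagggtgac
LINC02551, chr11:130862111-130862360, minus strand: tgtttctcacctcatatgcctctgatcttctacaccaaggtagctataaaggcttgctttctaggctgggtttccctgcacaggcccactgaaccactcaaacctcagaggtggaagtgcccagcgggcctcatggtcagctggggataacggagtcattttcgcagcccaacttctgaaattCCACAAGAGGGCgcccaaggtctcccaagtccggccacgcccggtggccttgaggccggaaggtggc
WDR38, chr9:124853210-124853459, plus strand: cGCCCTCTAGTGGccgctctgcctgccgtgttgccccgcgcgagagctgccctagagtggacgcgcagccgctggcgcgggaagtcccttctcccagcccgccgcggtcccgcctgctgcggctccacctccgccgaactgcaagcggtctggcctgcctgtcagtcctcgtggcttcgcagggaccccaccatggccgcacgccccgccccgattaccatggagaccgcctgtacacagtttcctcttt

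The same motif is set beside its flanks in the 5 promoter members of highest RAD21 fold enrichment in clone D7 DMSO that hold 1 motif near the CTCF summit with 9 flanking bases on both sides inside the window, which leaves out WDR38, and then in 3 other RAD21-CTCF sites chosen the same way. Each line reads along the motif, 5′ to 3′, with the core in capitals.

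LINC00398, chr13:30803055-30803084, minus strand: tgagagctgCCACTAGATGGCgcgtctgcc
LINC02551, chr11:130862157-130862186, minus strand: tctgaaattCCACAAGAGGGCgcccaaggt
LOC105373069, chr22:45645757-45645786, plus strand: cccgggcgcCCAGCAGGTGGCggtgcgcgg
AHCYL1, chr1:109984576-109984605, minus strand: ccctttgtgCCACCAGGTGGCaccatcagc
SDCBP2, chr20:1313663-1313692, plus strand: tccacgcggCCACTAGGGGGCgtcaaagtc

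PLEKHA6, chr1:204360132-204360161, plus strand: cttccaccaCCAGGAGAAGGCtgcccccca
PIGC, chr1:172444141-172444170, minus strand: ttcgagcagCCAGGAGGGGGCagcagtcac
LOC124903822, chr1:1909124-1909153, minus strand: cgcgctttcCCACCAGACGGCgctcgcagg

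The first 5 belong to persisting sites and the last 3, PLEKHA6, PIGC and LOC124903822, to sites that missed at least 1 RAD21 list. LINC00398 and LINC02551 are long non-coding RNA genes, AHCYL1 encodes a partner of the inositol trisphosphate receptor and SDCBP2 a syndecan-binding scaffold. RAD21 fold enrichment, the ratio of summit pileup to local background with 1 added to both, was 154 at LINC00398 for clone D7 DMSO, 237 for 4 h and 155 for 24 h. The clone A2 values there were 90.2, 84.8 and 74.3. At PIGC, which encodes an enzyme of glycosylphosphatidylinositol anchor synthesis, the clone D7 values were 18.0, 6.96 and 8.48, and clone A2 had 12.1 in DMSO, no peak at 4 h and 5.96 at 24 h. CTCF fold enrichment was 115 at LINC00398 and 103 at PIGC. Within 1 list these values rank peaks, and between lists they also follow depth, so sets of values from different libraries are read below by rank among the members.

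The core motif was present in 121 of the 688 RefSeq promoters that held the CTCF summit of a persisting site, or 17.6% (14.9 to 20.6). It was present in 91 of 1131 promoters at other RAD21-CTCF sites, or 8.05% (6.60 to 9.78), and in 5 of 81 at lost sites. Over all 34943 RefSeq promoters, 2.41% held it, and over the 2771 that held any CTCF summit, 10.5% did. The difference between persisting and other sites was 9.54 points (95% Newcombe interval 6.37 to 12.9). It was not matched on CTCF fold, whose median was 57.5 over all members and 18.98 over all other RAD21-CTCF sites. The promoter table leaves out chromosome 8, and the promoters in it are a small and GC-rich subset of the members, and the letters searched are a strict form of the motif, so a promoter without them is not thereby without a CTCF site.

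Summits had a direction at these motifs. In 94 persisting sites with exactly 1 core motif within 50 bp of the CTCF summit, the median RAD21 summit lay 17.5 to 19 bp downstream of the motif centre, read along the motif as printed above, in all 6 libraries. Between 84.0% and 87.2% of the RAD21 summits were downstream. The STAG1 summit lay 23 bp downstream and the STAG2 summit 28 bp downstream, with 77 of 80 STAG2 summits on that side. CTCF summits lay at −7.5 bp and PDS5A summits at −11.5 bp, upstream of the motif centre at the median. WAPL had a peak at 24 of these sites, with a median of −4 bp, quartiles of −16.5 and 11 bp and 11 summits downstream (45.8%, 27.9 to 64.9), so no side was preferred beyond counting error. At 72 of 91 sites the PDS5A summit was upstream of the RAD21 summit of clone D7 DMSO, by a median of 27 bp over all 91 (−27 bp along the motif). STAG2 was downstream of that RAD21 summit at 64 of 80 sites, by a median of 9.5 bp. In 70 other RAD21-CTCF sites the clone D7 DMSO RAD21 summit was at 11.5 bp, with 68.6% downstream, and PDS5A was at −0.5 bp in 56 of them. The rule used RAD21 overlaps and not summit positions relative to sequence, but no test was made of these offsets.

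**Figure D1:**
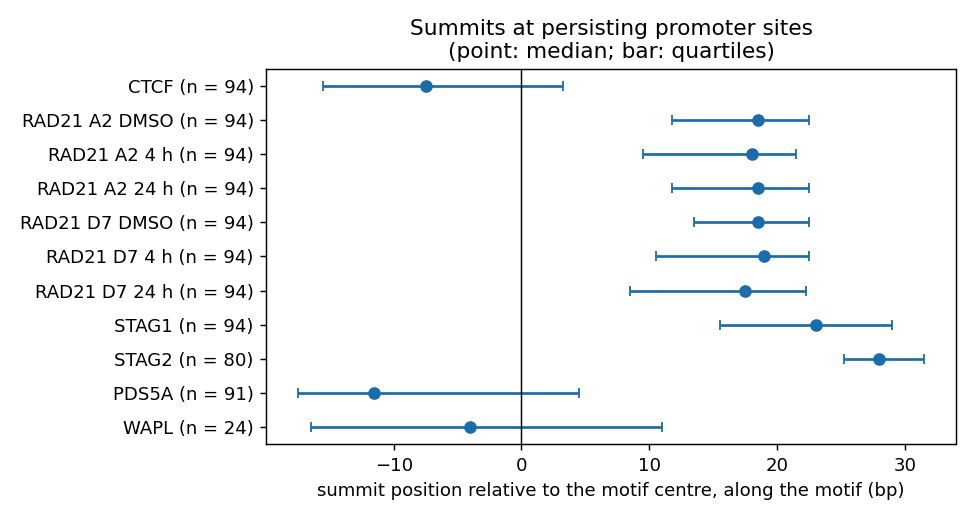
Summit positions at persisting promoter sites with 1 core motif near the CTCF summit, by library. The x axis is the position in bp relative to the motif centre, read along the motif; points are medians, bars run from the lower to the upper quartile, and n is the number of sites with a peak. RAD21, STAG1 and STAG2 medians lie between 17.5 and 28 bp, and CTCF, PDS5A and WAPL medians between −11.5 and −4 bp.

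The libraries did not group by clone or treatment in every respect, and this touches the results that follow. The narrowest peak was 283 bp long for clone A2 DMSO, 262 bp for clone A2 4 h and 317 bp for clone D7 24 h. For clone A2 24 h it was 344 bp, for clone D7 DMSO 337 bp and for clone D7 4 h 336 bp. In MACS2, which the processing notes name, the shortest reported peak follows by default the fragment length of the library. In the first 3 libraries, called narrow here, 94.8% to 95.6% of members had their RAD21 summit within 50 bp of the CTCF summit, against 81.0% to 86.9% in the last 3, called wide. The narrowest peak was 310 bp for STAG2, 348 bp for STAG1 and 353 bp for PDS5A. It was 322 bp for CTCF, 256 bp for WAPL and 239 bp for HA, so these lists were on the narrow side as well. Among the RAD21 libraries, background pileup, which serves as depth, ran from 1.87 in clone A2 DMSO to 4.05 in clone D7 at 4 h. The part of fragment length and depth in the results was not tested. The number of members, the peak shares, the STAG classes, the gene position, the motif share, the summit offsets and the counts at gene lists were also taken with either set of libraries alone, and are given so below where the direction, the call or the size changed by more than 1.5 times. This grouping, noticed after the values had been seen, crosses the clone and treatment labels, which are used as given and could not be checked from the peak lists.

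STAG1 and STAG2, the alternative cohesin subunits, marked most persisting sites. A STAG1 peak was present at 88.8% of members (88.3 to 89.2) and at 48.5% of other sites (47.6 to 49.4), beside 72.8% over all RAD21-CTCF sites. A STAG2 peak was present at 79.4% of members (78.8 to 79.99) and at 20.3% of other sites (19.6 to 21.0), beside 55.9% over all. Lost sites had STAG1 in 34.3% and STAG2 in 9.63%. The difference between persisting and other sites was 40.3 points for STAG1 (39.3 to 41.3) and 59.2 points for STAG2 (58.2 to 60.1). These intervals, like all those given, cover counting error only, since sites of 1 library are not replicates.

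The release factors differed in the same direction before strength was taken into account. PDS5A peaks were present at 72.5% of members and 47.6% of other sites, beside 62.6% over all RAD21-CTCF sites, a difference of 24.8 points (23.7 to 25.9). WAPL peaks were present at 2580 members, or 13.7%, and at 40 other sites, or 0.322%, beside 8.39% over all, a difference of 13.4 points (12.9 to 13.9). Of the 2667 WAPL peaks in the genome, 2586 lay on a persisting site, or 97.0% (96.2 to 97.5). HA peaks, of which there were 230, lay on a persisting site in 140 cases, or 60.9% (54.4 to 66.9). They covered 0.729% of members and 0.137% of other sites, beside 0.493% over all, a difference of 0.592 points (0.453 to 0.733). None of these 5 proteins had a peak at 700 members, or 3.72%, against 3458 other sites, or 27.9%, beside 13.3% over all.

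**Figure D2:**
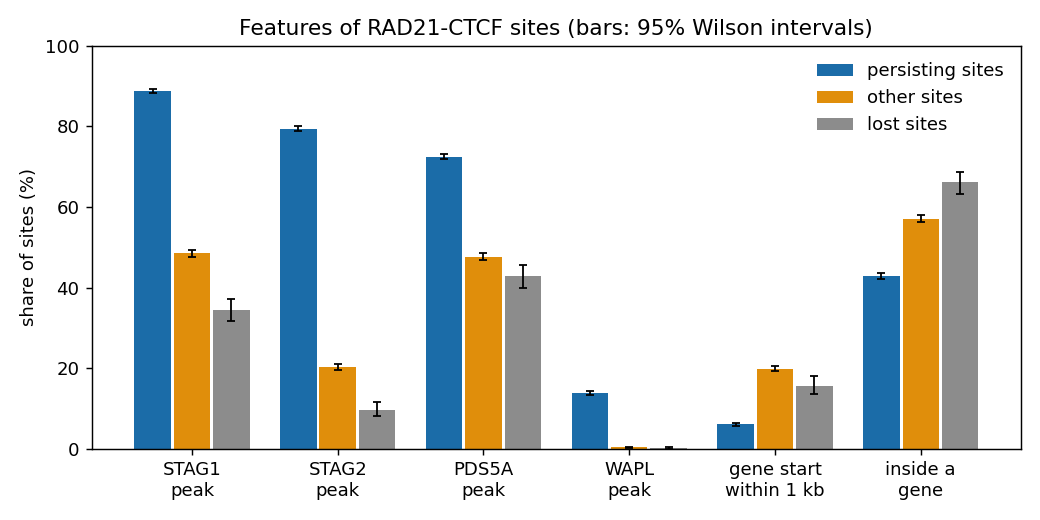
Share of RAD21-CTCF sites, in percent, with each feature, for 18801 persisting, 12409 other and 1153 lost sites. The lost sites are among the other sites. The features are a peak of STAG1, STAG2, PDS5A or WAPL and a summit inside a protein-coding gene. A further feature is the start of a protein-coding gene within 1 kb (chromosome 8 left out). Error bars are 95% Wilson intervals. STAG1, STAG2, PDS5A and WAPL are highest at persisting sites, at 88.8%, 79.4%, 72.5% and 13.7%, and both gene features are lowest there, at 6.02% and 42.9%.

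Persisting sites had higher RAD21 fold in the list that seeded them, which the rule used, and some of these comparisons changed when sites were matched on it. In the lowest decile of RAD21 fold enrichment in clone D7 DMSO, 6.11% of RAD21-CTCF sites persisted, and in the highest 99.9% did. Across deciles of CTCF fold enrichment the share went from 9.07% to 86.5%. The differences were therefore also taken within deciles of the clone D7 DMSO fold and weighted by the number of other sites. This was not done for HA. STAG1 then differed by 7.29 points (5.01 to 9.57) and STAG2 by 31.1 points (28.8 to 33.3), while PDS5A changed sign to −10.3 points (−12.4 to −8.25). In the fifth decile, for example, STAG2 was at 61.1% of 1817 members and 26.5% of 1315 other sites, and PDS5A was at 53.8% and 65.3%. WAPL differed by 0.533 points (0.313 to 0.754). The weights favour the lower deciles, where more of the other sites lie and few sites had WAPL. In the eighth decile WAPL was at 9.67% of members and 4.17% of other sites. In the same deciles STAG1 differed by 12.1 points at sites away from gene starts and by 18.5 at gene starts, while STAG2 differed by 29.7 and by 8.51 and PDS5A by −5.29 and 4.26 (−5.52 to 14.0). Weighted over deciles of CTCF fold instead, STAG1 differed by 25.1 points, STAG2 by 38.9, PDS5A by 7.04 and WAPL by 4.13.

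**Figure D3:**
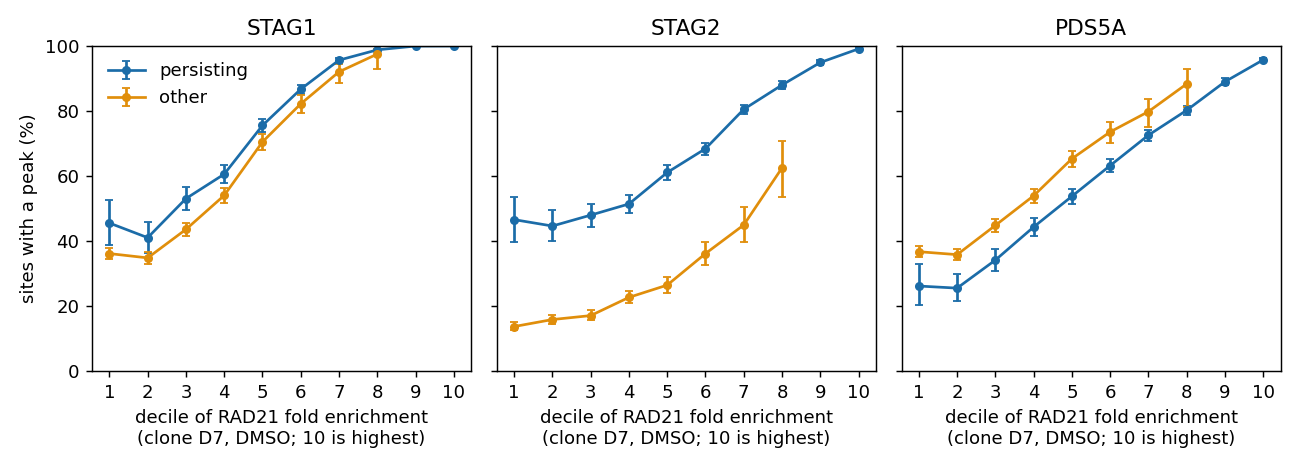
Share of persisting and other RAD21-CTCF sites with a STAG1, STAG2 or PDS5A peak, in percent, by decile of RAD21 fold enrichment in clone D7 DMSO (decile 10 is the highest); error bars are 95% Wilson intervals and points with fewer than 20 sites are left out. In the fifth decile STAG2 was at 61.1% of persisting and 26.5% of other sites, whereas PDS5A was at 53.8% and 65.3%.

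The matched differences depended on which RAD21 libraries entered the rule. With clone D7 DMSO, itself a wide library, as the starting list and only the wide libraries clone A2 24 h and clone D7 4 h required, 22363 sites persisted, and the matched difference was 14.9 points for STAG1, 13.9 for STAG2 and −1.28 for PDS5A (−3.00 to 0.446). With only the narrow libraries clone A2 DMSO, clone A2 4 h and clone D7 24 h required, 20446 sites persisted, and it was −6.43 points for STAG1, 44.3 for STAG2 and −22.5 for PDS5A. STAG1 thus changed sign between the sets, and STAG2 moved by more than 1.5 times. WAPL differed by 0.195 points with the wide and by 1.01 points with the narrow libraries. Before matching on strength, the differences stayed between 32.5 and 44.0 points for STAG1, 50.2 and 64.9 for STAG2, and 15.6 and 27.05 for PDS5A under either set. The STAG2 and WAPL libraries were themselves narrow and the STAG1 and PDS5A libraries wide. In the matched differences, the protein and the fragment length therefore cannot be told apart. The match was on clone D7 DMSO fold only, and not on fold in the other RAD21 libraries that the rule used.

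Within the members, STAG1 and STAG2 divided the sites unequally. Both were present at 13783 members (73.3%), STAG1 alone at 2913 (15.5%), STAG2 alone at 1149 (6.11%, or 9.46% of the sites that persist in the narrow libraries) and neither at 956 (5.08%). PDS5A was at 84.0% of the STAG1-only members (82.6 to 85.3) and at 9.14% of the STAG2-only members (7.61 to 10.9), a difference of −74.9 points (−76.9 to −72.6). A gene start within 1 kb was found for 13.9% of STAG1-only and 0.554% of STAG2-only members, a difference of −13.4 points (−14.8 to −12.0). WAPL was at 18.3% of members with both and at 1.68% and 1.22% of those with STAG1 or STAG2 alone. The difference between those single-subunit classes did not exceed counting error (−0.464 points, −1.19 to 0.449). The median clone D7 DMSO fold was 28.2 with both, 14.3 with STAG1 alone, 10.1 with STAG2 alone and 8.22 with neither. The classes were not matched on this fold. The STAG2 library was narrow and the STAG1 and PDS5A libraries wide, so subunit and fragment length cannot be told apart in these classes.

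RAD21 rank among the 18801 members, where 1 is the highest fold, followed the library grouping in the single-STAG classes. Members with both STAG peaks had a median rank between 7162 and 7286 in all 6 libraries. STAG2-only members had a median rank of 10724 for clone A2 4 h, 14309 for clone A2 DMSO and 13318 for clone D7 24 h, and of 14855, 15985 and 16465 for clone A2 24 h, clone D7 DMSO and clone D7 4 h. All 3 narrow libraries therefore ranked them higher than the 3 wide ones did. STAG1-only members ran the other way in 2 of the wide libraries, with 12770 in clone D7 at 4 h and 13478 in clone D7 DMSO against 14567 to 15475 in the narrow ones, and stood at 14562 in clone A2 at 24 h.

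**Figure D4:**
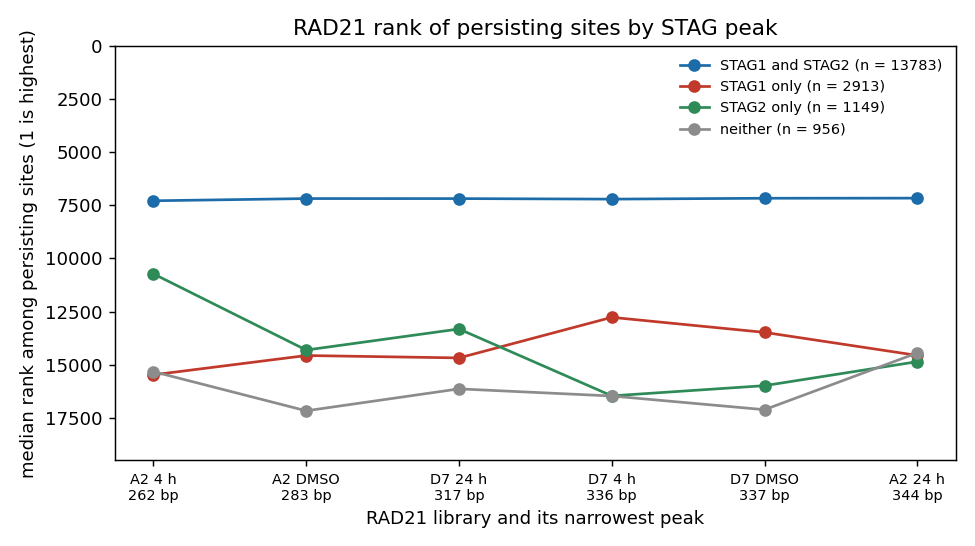
Median rank by RAD21 fold enrichment among the 18801 persisting sites (y axis, 1 is highest, axis inverted) in each RAD21 library, for members with peaks of both STAG subunits, 1 or neither; libraries are ordered by their narrowest peak in bp and lines only join points of a class. Members with both lie between 7162 and 7286 throughout, and STAG2-only members go from 10724 for clone A2 4 h to 16465 for clone D7 4 h.

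Some members changed from among the strongest to among the weakest between the library sets. The rank was higher in all 3 narrow than in all 3 wide libraries at 1721 members (9.15%), by more than 5000 ranks at 328. The reverse held at 1008 (5.36%), by more than 5000 ranks at 2. The site near SNX7, a sorting nexin gene, at chr1:98467693-98468088, 193504 bp from it, was chosen after its values were seen. Its rank was 761 for clone A2 DMSO, 14 for clone A2 4 h and 1084 for clone D7 24 h, and 17711, 18585 and 18179 for clone A2 24 h, clone D7 DMSO and clone D7 4 h. The fold was 82.2, 119.8 and 70.2 in the former and 5.49, 4.76 and 5.15 in the latter. The site near SEMA3E, a semaphorin guidance gene, had the same split, with ranks from 51 to 909 in the narrow and from 16953 to 18336 in the wide libraries. Of the 1721 members, 92.9% had STAG2, 73.0% STAG1 and 33.1% PDS5A, and of the 1008 the shares were 69.6%, 90.9% and 85.0%. Over all members they were 79.4%, 88.8% and 72.5%. By clone, 925 members (4.92%) ranked higher in all clone A2 libraries and 1292 (6.87%) in all clone D7 libraries. By treatment, 2162 (11.5%) ranked higher in both DMSO libraries than in all 4 dTAGV-1 libraries and 1967 (10.5%) ranked lower. The splits set 3 libraries against 3 or 2 against 4, so their shares are not compared with each other, and none was tested. The DMSO-high members had PDS5A in 92.4% and a gene start within 1 kb in 10.4%, and the DMSO-low members in 61.9% and 2.14%. Over all members these shares were 72.5% and 6.02%. PDS5A was itself precipitated from clone D7 in DMSO.

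**Figure D5:**
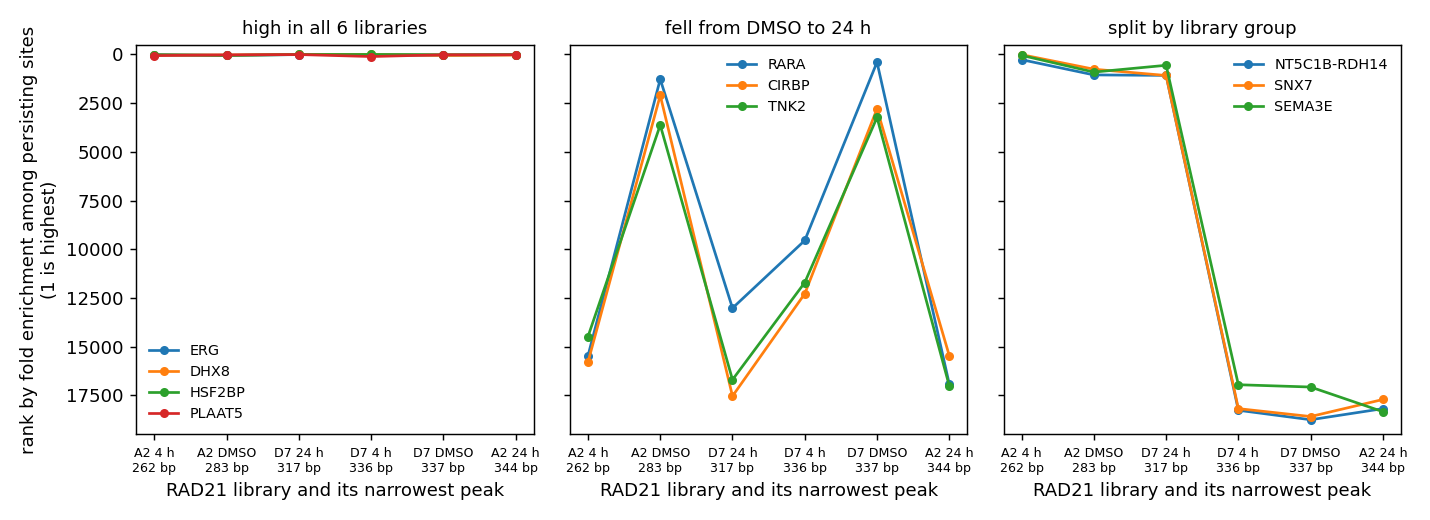
Rank by RAD21 fold enrichment among the 18801 persisting sites (y axis, 1 is highest, axis inverted) at named sites in the 6 RAD21 libraries, ordered by their narrowest peak in bp; each line is 1 site, labelled by its nearest protein-coding gene. The left panel has sites high in every library, the middle panel sites whose rank fell most from DMSO to 24 h, with RARA at 1275 and 400 in DMSO and 16920 and 13021 at 24 h, and the right panel 3 sites chosen after their values were seen, with SNX7 between 14 and 1084 in the narrow and between 17711 and 18585 in the wide libraries.

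Individual members showed how far the level at a persisting site could vary. The 4 sites with the best worst rank lay near ERG, an ETS transcription factor gene, at DHX8, which encodes a splicing helicase, inside HSF2BP, a meiotic recombination gene, and inside PLAAT5, an acyltransferase gene. ERG (chr21:38355590-38356654, 11072 bp outside the gene) had RAD21 folds of 133, 125 and 191 in clone A2 for DMSO, 4 h and 24 h, and of 128, 246 and 179 in clone D7. Its rank was between 8 and 53 in all 6 libraries. DHX8 (chr17:43483182-43484293), 251 bp from the gene start, had folds of 141, 109 and 171 in clone A2 and of 128, 332 and 223 in clone D7. It ranked 1 in both dTAGV-1 libraries of clone D7, and its STAG1 fold was 98.6 and its STAG2 fold 32.9. PLAAT5 had ranks from 9 to 111 and HSF2BP from 6 to 57.

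The weakest members in clone D7 DMSO were inside DNAI7, a dynein intermediate chain gene, inside DLGAP5, a mitotic spindle gene, and near LMNTD1. DNAI7 (chr12:25130311-25130677) had a fold of 2.37 and the last rank, 18801, in clone D7 DMSO, and ranked 8153 for clone A2 DMSO, 4628 for clone A2 4 h and 13489 for clone D7 24 h. DLGAP5 (chr14:55161160-55161574) likewise ranked 18800 in clone D7 DMSO and 14240, 9732 and 8761 in the same 3 libraries. These 3 are the narrow libraries, and in the wide libraries clone A2 24 h and clone D7 4 h, DNAI7 ranked 18665 and 18681. LMNTD1 was low in all 6, with ranks between 16723 and 18799.

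STAG1 without STAG2 was strongest at NEURL3, a ubiquitin ligase gene, RAPGEF1, a guanine nucleotide exchange factor gene, and OSR1, a zinc-finger transcription factor gene. NEURL3 and RAPGEF1 sites lay 105 and 142 bp from the gene start, with STAG1 folds of 87.1 and 66.2. At RAPGEF1 (chr9:131739039-131740969) RAD21 fold was 79.6, 13.5 and 15.6 in clone A2, against 58.3, 23.6 and 21.6 in clone D7. Its ranks were 885 and 1860 in the DMSO libraries and 8002 to 10707 in the 4 dTAGV-1 libraries, so the site stood higher in both DMSO libraries. NEURL3 ranked 12375, 11875 and 15118 in clone A2, against 8753, 864 and 8557 in clone D7, with the 4 h library of clone D7 apart from the rest. STAG2 without STAG1 was strongest inside SETD3, an actin methyltransferase gene, HYAL4, a hyaluronidase family gene, and ANO3, an anoctamin gene, with STAG2 folds of 73.7, 52.2 and 51.9. HYAL4 ranked 5594, 2652 and 18181 in clone A2, against 18085, 17968 and 3614 in clone D7, the split by narrow and wide library again.

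RARA, CIRBP and TNK2 were the members whose mean rank fell most from DMSO to 24 h of dTAGV-1. RARA encodes a retinoic acid receptor, CIRBP a cold-inducible RNA-binding protein and TNK2 a tyrosine kinase. At the RARA site (chr17:40354633-40355642, inside the gene) RAD21 fold was 71.7, 7.42 and 6.53 in clone A2, against 88.6, 19.7 and 12.4 in clone D7. It ranked 1275 and 400 in the DMSO libraries and between 9550 and 16920 in the dTAGV-1 libraries, narrow or wide. Ranks went from 2102 and 2796 in DMSO to between 12284 and 17536 at CIRBP, and from 3627 and 3238 to between 11709 and 17008 at TNK2. All 3 had STAG1, STAG2 and PDS5A peaks, with PDS5A folds of 99.3, 66.5 and 53.6. S100A9, a calprotectin subunit gene, APMAP, a plasma membrane protein gene, and TNS3, a tensin gene, were nearest to the members whose rank rose most. Near S100A9 (chr1:153353571-153354081, 4087 bp away) fold was 11.9, 5.79 and 49.8 in clone A2, against 8.28, 72.4 and 66.0 in clone D7. The ranks were 16887, 17011 and 2442, then 17059, 1825 and 1278, so both 24 h libraries stood above DMSO, whereas at 4 h clone D7 did and clone A2 did not. Near APMAP the ranks were 10637, 8975 and 1038, then 13826, 220 and 462, in the same order. These 6 were picked for their ranks, so no test applies to them.

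A peak in all 12 lists was found at 24 members. The strongest of these by HA fold were in EFNB2, an ephrin ligand gene (HA fold 13.8), near TARBP1, an RNA methyltransferase gene (9.17), and near KRT23, a keratin gene (9.02). Near KRT23 (chr17:40908876-40910886, 13214 bp outside the gene) RAD21 fold was 91.8, 76.5 and 161 in clone A2, against 80.3, 118 and 99.2 in clone D7, with ranks from 41 to 627. The EFNB2 site ranked between 645 and 4067 and the TARBP1 site between 84 and 2990, and clone A2 at 4 h gave the lowest place at both, with folds of 30.4 and 36.0. At the other extreme, members with no peak of STAG1, STAG2, PDS5A, WAPL or HA included sites inside HMGCLL1, a lyase gene, and near TNIP3, an NF-kB inhibitor gene, and SOX3, a transcription factor gene, with clone D7 DMSO folds of 28.0, 24.3 and 23.3. In HMGCLL1 the rank stayed between 6149 and 11173 in all 6 libraries, while no STAG peak was called.

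Over all members, RAD21 levels were higher than at other sites in each library. The median fold was 28.2, 15.7 and 17.7 in clone A2 for DMSO, 4 h and 24 h, and 22.2, 20.1 and 18.4 in clone D7, where other sites with a peak had medians between 5.79 and 8.88. CTCF fold had a median of 57.5 at members, 18.98 at other and 17.5 at lost sites. Median RAD21 width was 791, 642 and 769 bp in clone A2, against 828, 837 and 733 bp in clone D7. Spearman's rho of fold across the members was 0.82 between the DMSO libraries of both clones, 0.80 between clone A2 4 h and clone D7 24 h, and 0.84 between clone D7 DMSO and 4 h. It was lowest, at 0.59, between clone A2 at 4 h and clone D7 DMSO. These values describe 18801 sites that share libraries and depth, and carry no p. With STAG2 fold rho was 0.64 for clone A2 4 h and 0.38 for clone D7 4 h, and with STAG1 fold it was 0.53 and 0.81.

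Persisting sites lay away from genes more often than other sites did. Gene starts in all shares and splits are those of protein-coding genes, whereas the promoters searched for the motif include non-coding genes. With chromosome 8 left out, 1078 of 17911 members (6.02%) had a summit within 1 kb of a gene start. The count was 2370 of 11922 at other sites (19.9%), beside 11.6% over all RAD21-CTCF sites. The difference was −13.9 points (−14.7 to −13.1), and −13.3 points within deciles of fold. With the wide libraries alone the matched difference was −4.55 points and with the narrow ones −17.3. Inside a protein-coding gene lay 42.9% of members and 57.1% of other sites, beside 48.6% over all, a difference of −14.2 points (−15.3 to −13.1). Members at gene starts had STAG1 in 97.9%, STAG2 in 62.2%, PDS5A in 94.8% and WAPL in 8.53% of cases. Members elsewhere had 88.3%, 80.4%, 71.4% and 14.2%.

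Members were spread over all chromosomes of the lists. The median gap between neighbouring members was 72.7 kb, and between all RAD21-CTCF sites 42.9 kb. Members are a part of those sites, so their gaps are wider by number alone. The persisting share ran from 51.9% on chromosome 19 to 64.6% on chromosome 8. The most members inside 1 protein-coding gene were 15 of 17 RAD21-CTCF sites in GPHN, which encodes gephyrin, a scaffold of inhibitory synapses, at chr14:66508147-67735355. NTM, a neural adhesion gene, held 14 of 19, KAZN, a desmosome-associated gene, 12 of 16, and THSD4, a matrix gene, 12 of 15. KCNMA1, a potassium channel gene, and the phosphodiesterase genes PDE1C and PDE4D tied at 11, of 17, 16 and 16 sites. All 7 are long, between 686 and 1553 kb.

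Sites inside or within 10 kb of genes of 6 lists were counted beside the 60.2% of all RAD21-CTCF sites. In the HOX clusters, body-axis transcription factors, 15 of 18 sites persisted, with up to 3 of 3 at single genes (HOXB5 and HOXD13). Their median clone D7 DMSO fold was 36.3, against 12.8 over all sites. Of 13 sites at clustered protocadherins, neuronal adhesion genes, 8 persisted. All 8 were in the gamma cluster, which also held 12 of the 13 candidate sites. The nested PCDHGA1, PCDHGA2 and PCDHGA3 each took in all 8, of 12, 11 and 10 sites. No alpha gene had a candidate site, and PCDHB14 had 1 that did not persist. At imprinted genes 20 of 37 persisted, with 5 of 7 at GRB10, a growth factor receptor adaptor. At cohesin genes and their regulators 13 of 35 did, with 2 of 3 at STAG1, 2 of 5 at PDS5B and 2 of 2 at CTCF. At genes of the retinal pigment epithelium 17 of 24 did, with 3 of 3 each at MITF, the pigment cell transcription factor, and KRT8. At targets of YAP, TGF-beta and AP-1 22 of 47 did, with 3 of 4 at ACTA2, smooth muscle actin. The lists are small and the Wilson intervals wide, 23.2% to 53.7% for the cohesin list and 60.8% to 94.2% for HOX.

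Membership turned on calls and not on how much the peaks overlapped. The smallest overlap of a member with any of its 6 other peaks was 13 bp and the median 575 bp, and 1 member had less than 50 bp. Of 3764 sites that missed a single list, the nearest peak of that list was 203 bp away, so none lay just outside by distance. Their median clone D7 DMSO fold was 8.15, and 1820 of them missed only clone A2 at 4 h, the list with the fewest peaks. Among RAD21 peaks without CTCF, 120 of 6356 (1.89%) were in all 5 other lists.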

How the data were processed

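The lists were ChIP-seq peaks in narrowPeak layout without a header, 1 list per immunoprecipitation, so calls were per library. The submitters' processing notes name BWA, Picard, SAMtools, bedtools, deepTools, MACS2, hg38 and mm10, with no version or role. The authors deposited for each peak a score, a fold enrichment (a ratio), −log10 values of p and q, and a summit offset in bp. In 11 of 12 lists the score was 10 times the −log10 q as deposited; 5 peaks of clone D7 at 4 h departed. The fold and score are the authors' values per peak; folds of different lists follow depth, so orders between libraries are read from ranks among the members.

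Computed here with Python 3.11.15, pandas 2.3.3, numpy 2.4.6 and scipy 1.17.1 were overlaps of at least 1 bp, ranks, Wilson and Newcombe intervals, and shares weighted over deciles. Read totals were not analysed here. Summit pileups solved from fold and p under a Poisson model came out whole, within 0.02, in 100% of peaks of 11 lists and 1.74% of the HA list, whose depth is unknown. Gene positions are RefSeq, GRCh38.p14, and gene starts those of protein-coding genes. Spike-in factors were not used, so a uniform change in occupancy would not be seen. Scripts were tested on simulated lists.

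The members, gene lists and rule for named sites were chosen with earlier results of these data known. Named sites are the 4 with the best worst RAD21 rank, the 3 weakest in clone D7 DMSO, the 3 strongest with STAG1 or STAG2 alone, the 3 strongest with no other protein, the 3 in all 12 lists with the highest HA fold, the 3 whose mean rank fell or rose most to 24 h, the genes with the most members, and the strongest promoters with a motif. Alternatives were summit distance, q, CTCF list, seed list, list length, leaving out a library, deciles of strength, window, and, added after seeing the data, gene starts, CTCF strength and the library sets. The 10 input samples were not analysed here.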

Additional observations from a re-analysis of the deposited data

Results flagged for a closer look

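Median RAD21 width of the persisting sites changed from DMSO to 4 h by −136 bp in clone A2 and by 8 bp in clone D7, in opposite directions between the clones. From DMSO to 24 h the median change in distance between the RAD21 and CTCF summits was 2 bp in clone A2 and −2 bp in clone D7, also opposite. Neither difference between clones was tested, as each value comes from 1 library. Clone A2 at 4 h had the shortest narrowest peak, 262 bp, and the set of narrow libraries holds clone A2 DMSO and clone D7 at 24 h but neither clone A2 at 24 h nor clone D7 DMSO. The part of library type in these changes was not tested.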

How the results depend on the processing

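The number of persisting sites stayed within 1.5 times of 18801 under every alternative run. The share was 61.3% with summits within 200 bp, 62.1% at a −log10 q of at least 10, 71.6% against the upper 50% of the CTCF list, 55.2% from clone A2 DMSO, 69.2% at equal list length, 71.7% with wide libraries and 65.5% with narrow ones. Leaving out 1 library gave 60.5% to 66.1%. The PDS5A difference was −10.3 points in deciles of clone D7 DMSO fold, −5.29 away from gene starts, 4.26 (−5.52 to 14.0) at gene starts, −1.28 with wide and −22.5 with narrow libraries. The STAG1 difference was −6.43 with narrow libraries in those deciles, and the WAPL difference −0.0483 at gene starts. Fewer sites entered the gene-start values; otherwise the cause was not tested. STAG2 and gene-start differences kept their sign and call in all their alternatives. STAG2 at gene starts was nonetheless 8.51 (2.71 to 14.3). The gene-start difference was −8.77 against the upper 50% of the CTCF list and −9.12 from clone A2 DMSO. The HA difference also kept its sign and call, but it was not taken within deciles of fold, where PDS5A changed sign. The library sets, gene-start split and CTCF deciles were chosen after seeing the data. The shares were not paired by clone, because they describe 1 site set defined over all 6 lists together, from no fit over libraries. Only width and summit distance at members were set against DMSO of the same clone, site by site. Each clone held 1 library per condition.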
